A study of Caenorhabditis elegans with 8 samples.

Results

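Mitochondrial ribosomal proteins are the nucleus-encoded proteins of the ribosome that works inside mitochondria. They were taken here as the genes whose single symbol in the array's platform annotation begins with mrpl- or mrps- followed by a number. This gave 70 genes, 41 counted as large subunit (mrpl) and 29 as small subunit (mrps), among 25478 genes measured. The subunit was read from the symbol alone, and where each protein sits in the ribosome was not checked. Each of the 70 was measured by 1 probe set, so no choice between probe sets was needed. RefSeq lists 71 such symbols, and mrpl-42 is the 1 that was not measured.

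The mitochondrial ribosome translates the few mRNAs that the mitochondrial genome of the worm encodes, all of them subunits of the respiratory chain or the ATP synthase. Its ribosomal RNAs are transcribed in the mitochondrion, while its proteins are made in the cytosol and imported, so the mRNAs measured here belong to the nuclear side of that supply. In *Caenorhabditis elegans* lowered expression of several of these genes, mrps-5 being the best studied, lengthens life and induces the mitochondrial unfolded protein response, a rise of mitochondrial chaperones and proteases under imbalance between nuclear and mitochondrial subunits.

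The samples were whole worms of 2 genotypes, wild type (strain N2) and mir-71(n4115), which carries the n4115 allele of the microRNA gene mir-71, a gene known for its part in lifespan. Both genotypes were bleach-synchronised, fed *Escherichia coli* OP50, left untreated and collected on day 1 of adulthood. Each group had 4 samples with 1 Affymetrix array each. The labels do not say whether samples came from separate cultures or how many isolates of the mutant were used, so p-values measure the spread between these samples, which may be technical.

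Values are log2 signals, on which a difference of 1 is a doubling of signal, and every difference is mutant minus wild type unless stated. Standard errors and adjusted p-values come from limma with 4 arrays per group, or 3 wild-type arrays where replicate 4 is left out. Array medians lay between 5.20 and 5.30, and the 4 arrays per group limit the precision. Wild-type replicate 4 stood apart from its group. Over all tested probe sets it correlated at 0.986 to 0.993 with the mutant arrays and at 0.961 to 0.976 with wild-type replicates 1 to 3, so the counts, the group medians and the named genes below are given with it and, where marked, without it. No named probe set measures mir-71, so the genotype could not be checked at the mutated gene. RNA came from whole worms, in which fewer cells of a type and less RNA per cell cannot be told apart.

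With all 8 arrays, most mitoribosomal genes had a lower mean in the mutants, but none passed the test. The mean was lower in the mutants for 54 of the 70 genes and higher for 16, that is 77.1% lower, against 48.2% of all genes. The median difference was -0.31 over the large subunit and -0.31 over the small subunit, against 0.02 over all genes. The 70 differences ran from -1.28 (mrpl-35) to 0.68 (mrps-28). In limma with Benjamini-Hochberg adjustment over all tested probe sets, 0 of 70 were past an adjusted p of 0.05, against 1.84% of all genes (1.22% lower and 0.616% higher), and the lowest adjusted p was 0.0745.

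At an unadjusted p under 0.05 the count was 23 lower, or 32.9% of the 70, against 12.9% of all genes. Higher at the same level were 3 genes, or 4.29%, against 13.2% of all genes. The large subunit held 12 of the 23 and the small subunit 11. Lower by more than 0.5 were 22 genes, 2 were higher by more than 0.5, and 11 lay within 0.1 of zero. Both subunits thus contributed to either side of zero.

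The wild-type arrays spread more than the mutant ones. The median standard deviation over the 70 genes was 0.39 among wild types and 0.13 among mutants, against 0.28 and 0.17 over all genes. Wild-type replicate 4 was the lowest wild-type array for 52 of the 70 genes and the highest for 10. It lay nearer to the mutant mean than to the mean of wild-type replicates 1 to 3 for 62 genes, or 88.6%, against 72.2% of all genes. In 27 genes it lay inside the range of the 4 mutants, in 39 below all of them and in 4 above all of them.

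**Figure D1:**
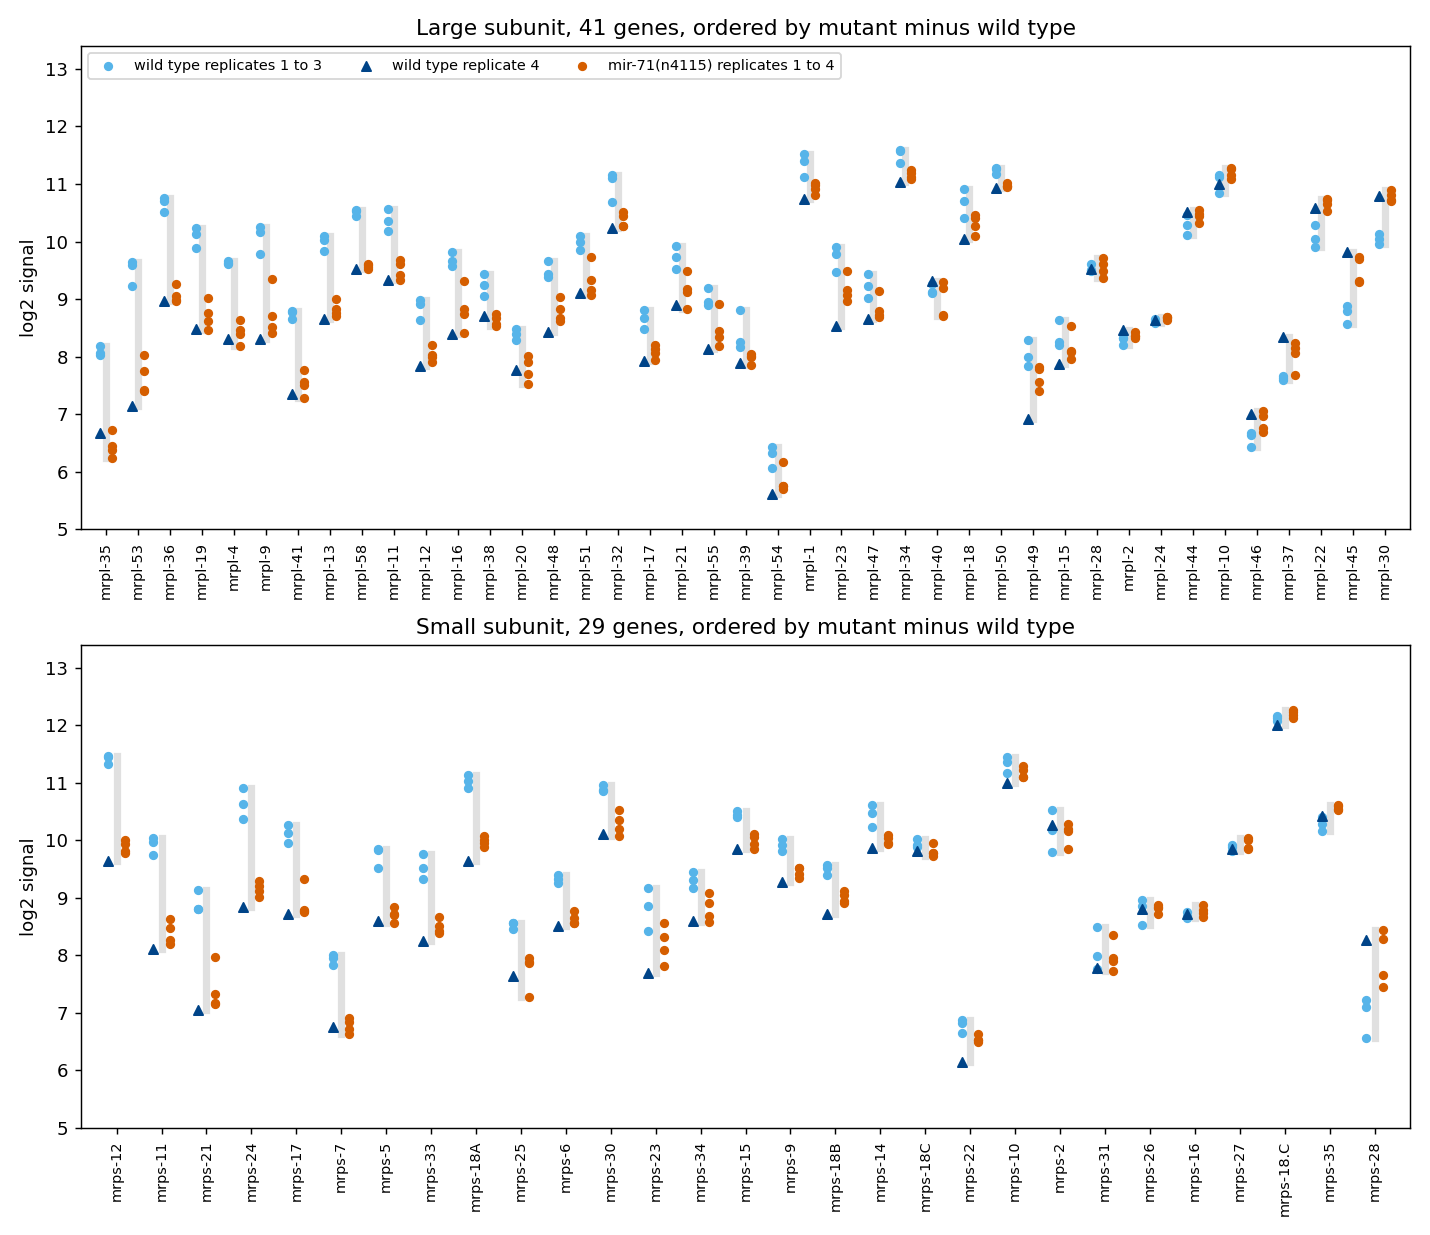
Log2 signal of all 70 genes in every array, large subunit above and small subunit below, ordered from the most negative to the most positive difference. Light circles are wild-type replicates 1 to 3, the dark triangle is wild-type replicate 4 and orange circles are the 4 mutants. In most genes at the left the triangle lies with or below the mutants.

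The median of the large subunit, taken after subtracting each gene's mean over the 8 arrays, was 0.39, 0.19, 0.48 and -0.35 in wild-type replicates 1 to 4 and -0.16, -0.30, -0.05 and -0.24 in mutant replicates 1 to 4. The small subunit gave 0.34, 0.29, 0.41 and -0.37 in the wild type and -0.10, -0.27, -0.07 and -0.20 in the mutants. In both subunits wild-type replicate 4 was the lowest of the 8 arrays and wild-type replicate 3 the highest. Among the mutants replicate 3 was the least low, and it held the highest mutant value for 46 of the 70 genes. Both subunits therefore kept almost the same order across arrays.

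**Figure D2:**
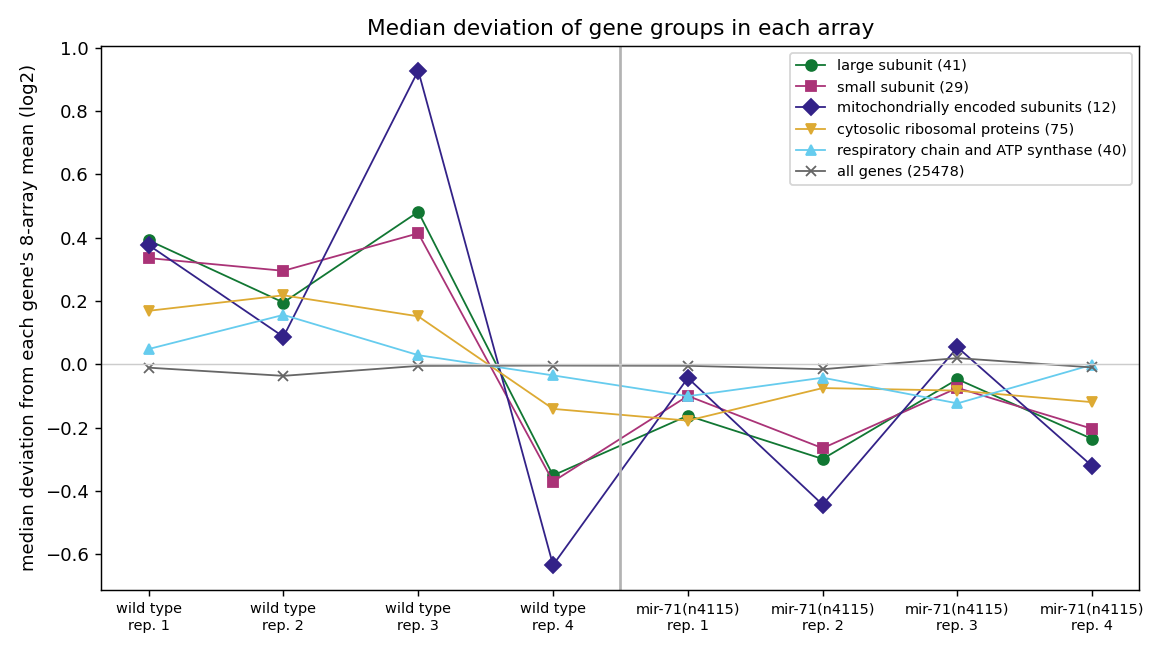
Median over each gene group of the deviation from each gene's 8-array mean (log2, vertical) in the 8 arrays (horizontal, wild type left of the line). The large and small subunits move together, from 0.48 and 0.41 in wild-type replicate 3 to -0.35 and -0.37 in wild-type replicate 4, the mitochondrially encoded subunits span more, and all genes stay near 0.

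Wild-type replicate 4, labelled wild type, lay inside the mutant range in 27 genes, below all mutants in 39 and above them in 4. The contrast was therefore also fitted without it. In that fit 41 of the 70 genes fell, or 58.6%, against 17.8% of all genes, and 4 rose, or 5.71%, against 19.1% of all genes. Of the 41, 23 were of the large and 18 of the small subunit. The risen genes were mrpl-22, mrpl-30, mrpl-45 and mrps-28. The median difference was -0.54 over the large and -0.49 over the small subunit, against 0.02 over all genes. Without that array 36.9% of all genes changed, so a call there is far more common than in the fit with all arrays. The array was left out because of its values, and the same values were tested. Calls and p-values of every fit without it are therefore descriptions and not evidence of a difference between genotypes. When the array was kept but weighted by how well it matched its group, 26 large-subunit and 18 small-subunit genes fell, against 19.8% of all genes, and 4 and 2 rose, against 21.3%.

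Replicate 4 itself was farther from the other wild types than the mutants were. The median over the 70 genes of replicate 4 minus the mean of wild-type replicates 1 to 3 was -0.68, and that of the mutants minus the same mean was -0.49. The mutant mean lay above replicate 4 in 57 genes and below it in 13, with a median difference of 0.17. Over all genes these 3 medians were 0.01, 0.02 and 0.01. In the median, the mutants thus lay closer to wild-type replicates 1 to 3 than replicate 4 did.

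The genes whose groups do not overlap were counted as well. All 4 mutants lay below all 4 wild types in 0 of the 70 genes (5.01% of all genes) and above them in 1, mrps-35 (6.0% of all genes). Against wild-type replicates 1 to 3 alone, all mutants lay below in 42 genes, or 60% (20.4% of all genes), and above in 7, or 10% (22.6% of all genes).

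In the large subunit the lower genes with the lowest p-values were mrpl-35, mrpl-36 and mrpl-58. The gene mrpl-35, whose bacterial counterpart is the small protein L35, gave 8.18, 8.07, 8.02 and 6.67 in wild-type replicates 1 to 4 and 6.45, 6.38, 6.73 and 6.24 in mutant replicates 1 to 4. Wild-type replicate 4 lay inside the mutant range, 1.42 below the mean of the other wild types. The difference was -1.28 (standard error 0.32, limma adjusted p = 0.0745), a signal 2.43-fold lower in the mutants. Without replicate 4 it was -1.64 (limma adjusted p = 1.14e-04).

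The gene mrpl-36, the counterpart of bacterial L36, gave 10.70, 10.51, 10.75 and 8.96 across the wild types and 9.06, 8.98, 9.27 and 8.97 across the mutants. Here replicate 4 lay just below every mutant, and the difference was -1.16 (standard error 0.36, limma adjusted p = 0.110). Without replicate 4 it was -1.58 (limma adjusted p = 8.69e-05). The gene mrpl-58 is named like human MRPL58, a subunit that can free ribosomes stalled at the end of an mRNA. It gave 10.53, 10.55, 10.45 and 9.53 across the wild types and 9.61, 9.59, 9.55 and 9.51 across the mutants. Its mutants spread by an SD of only 0.04 and its wild types by 0.49. The difference was -0.70 (standard error 0.22, limma adjusted p = 0.112), and -0.94 without replicate 4 (limma adjusted p = 2.38e-04).

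The large-subunit genes with the lowest p-values among those higher in the mutants were mrpl-30, mrpl-22 and mrpl-45. The protein of mrpl-22 has a bacterial counterpart that lines the exit tunnel, through which the new chain leaves, and in mammals MRPL45 sits at the mouth of that tunnel and holds the ribosome to the inner membrane. The gene mrpl-30 gave 9.95, 10.05, 10.13 and 10.80 across the wild types and 10.70, 10.90, 10.73 and 10.81 across the mutants. The difference was 0.55 (standard error 0.18, limma adjusted p = 0.122), and 0.74 without replicate 4 (limma adjusted p = 9.98e-04). Values for mrpl-22 were 10.05, 10.29, 9.90 and 10.59 across the wild types and 10.65, 10.75, 10.54 and 10.73 across the mutants, a difference of 0.46 (standard error 0.16, limma adjusted p = 0.129) that became 0.59 without replicate 4 (limma adjusted p = 0.00644).

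For these genes replicate 4 again took the mutant side, now the high one. The same was seen in mrpl-45, which gave 8.56, 8.88, 8.79 and 9.82 across the wild types and 9.31, 9.69, 9.29 and 9.73 across the mutants. Its difference of 0.49 (standard error 0.26, limma adjusted p = 0.250) became 0.76 without replicate 4 (limma adjusted p = 0.00498). Replicate 4 thus exceeded all 4 mutants in mrpl-45 and lay within their range in mrpl-30 and mrpl-22.

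In the small subunit the lowest p-values among the lower genes were those of mrps-7, mrps-5 and mrps-12. Their bacterial counterparts lie along the path of the mRNA, S12 at the decoding centre, S5 at the entry and S7 in the head near the exit. The gene mrps-12 gave 11.45, 11.32, 11.46 and 9.63 across the wild types and 9.94, 9.81, 10.0015 and 9.78 across the mutants. Wild-type replicates 1 to 3 all exceeded the mutants by more than 1, and replicate 4 lay below all of them. The difference was -1.09 (standard error 0.38, limma adjusted p = 0.128), and -1.53 without replicate 4 (limma adjusted p = 6.73e-05).

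The gene mrps-7 gave 8.01, 7.95, 7.83 and 6.75 across the wild types and 6.91, 6.63, 6.72 and 6.85 across the mutants. Its difference was -0.85 (standard error 0.26, limma adjusted p = 0.108), and -1.15 without replicate 4 (limma adjusted p = 1.96e-04). The lifespan gene mrps-5 gave 9.83, 9.85, 9.52 and 8.61 across the wild types and 8.72, 8.69, 8.84 and 8.56 across the mutants. In both genes replicate 4 lay inside the mutant range and the other 3 wild types above it. For mrps-5 the difference was -0.75 (standard error 0.26, limma adjusted p = 0.128), a signal 1.68-fold lower in the mutants, and -1.03 without replicate 4 (limma adjusted p = 4.74e-04).

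Only 6 small-subunit genes were higher in the mutants. The gene mrps-35, for a protein with no bacterial counterpart, gave 10.28, 10.41, 10.16 and 10.42 across the wild types and 10.54, 10.59, 10.52 and 10.61 across the mutants. It is the gene in which all mutants exceeded all wild types, replicate 4 included. The difference was small, 0.25 (standard error 0.11, limma adjusted p = 0.187), and without replicate 4 it was 0.28 (limma adjusted p = 0.0652).

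The gene mrps-28 gave 7.10, 7.22, 6.56 and 8.27 across the wild types and 7.66, 8.45, 7.45 and 8.29 across the mutants. It varied more among mutants (SD 0.48) than the other mitoribosomal genes named here, and its difference was 0.68 (standard error 0.36, limma adjusted p = 0.252), and 1.00 without replicate 4 (limma adjusted p = 0.0171). The gene mrps-18.C had the brightest probe set of the small subunit. Its values were 12.16, 12.07, 12.13 and 12.004 across the wild types and 12.24, 12.13, 12.26 and 12.17 across the mutants. In 3 of 4 mutants it exceeded all wild types, and the other mutant lay among them, with a difference of 0.11 (standard error 0.10, limma adjusted p = 0.496), and 0.08 without replicate 4 (limma adjusted p = 0.553).

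The other genes with a published part in worm lifespan had smaller differences than mrps-5, and that contrast was not tested. The gene mrpl-1, counterpart of the L1 protein of the stalk where spent tRNA leaves, gave 11.39, 11.12, 11.52 and 10.74 across the wild types and 10.99, 10.81, 11.02 and 10.92 across the mutants, a difference of -0.26 (standard error 0.17, limma adjusted p = 0.347). The gene mrpl-2, for a protein beside the site of peptide bond formation, gave 8.32, 8.32, 8.21 and 8.47 across the wild types and 8.32, 8.36, 8.43 and 8.35 across the mutants. All 8 arrays lay close together, with a difference of 0.04 (standard error 0.11, limma adjusted p = 0.837).

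The gene mrpl-37, for a large-subunit protein found only in mitochondria, gave 7.59, 7.64, 7.67 and 8.34 across the wild types and 8.06, 8.23, 7.68 and 8.15 across the mutants. Replicate 4 was here the highest of all 8 arrays, and the difference was 0.22 (standard error 0.20, limma adjusted p = 0.483). Without that array mrpl-1 fell by 0.41 (limma adjusted p = 0.0319), while mrpl-2 and mrpl-37 differed by 0.08 and 0.40 (limma adjusted p = 0.544 and 0.0556).

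The remaining genes picked by brightness showed small differences. The brightest probe set of the large subunit, that of mrpl-34, gave 11.59, 11.57, 11.36 and 11.03 across the wild types and 11.24, 11.08, 11.20 and 11.13 across the mutants, a difference of -0.23. The dimmest, that of mrpl-54, gave 6.43, 6.06, 6.33 and 5.61 across the wild types and 5.76, 5.74, 6.17 and 5.69 across the mutants, a difference of -0.27. The dimmest of the small subunit, that of mrps-22, gave 6.88, 6.65, 6.83 and 6.15 across the wild types and 6.53, 6.53, 6.50 and 6.64 across the mutants, a difference of -0.08. In all 3 genes replicate 4 was the lowest of the 8 arrays, and the limma adjusted p-values were 0.323, 0.391 and 0.782. Without replicate 4 the differences were -0.35, -0.43 and -0.24, of which that of mrpl-34 passed (limma adjusted p = 0.0337, 0.0527 and 0.112).

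Genes were also grouped by where their counterparts sit in other ribosomes, which was not checked for the worm proteins. The groups were drawn up when values of these genes were already known, so they are given as descriptions only. The 6 genes along the mRNA channel (mrps-2, mrps-5, mrps-7, mrps-11, mrps-12 and mrps-24) had a median difference of -0.94. All 6 were lower, 5 of them at an unadjusted p under 0.05 (12.9% of all genes), and without replicate 4, where the median was -1.31, these 5 fell (17.8% of all genes). The exception, mrps-2, differed by -0.06. These counts depend on the genes chosen for the group. It holds mrps-5, mrps-7 and mrps-12, the lower small-subunit genes with the lowest p-values, so the shares over all genes do not test it. The gene mrps-28, taken here as the counterpart of bacterial S1 and higher at 0.68, was not placed in it. Nor were the 4 genes named after S18, from -0.71 to 0.11. The gene mrps-11 differed by -1.08, and mrps-24, known in mammals as the counterpart of bacterial S3, by -1.03.

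The 4 genes of the stalk proteins, which catch translation factors and release tRNA, had a median of -0.41, and of -0.61 without replicate 4. Among them mrpl-11 and mrpl-12 differed by -0.59 and -0.56, while mrpl-10 differed by 0.17. The 6 genes of the exit tunnel and its mouth (mrpl-4, mrpl-22, mrpl-23, mrpl-24, mrpl-45 and mrpl-47) were mixed, 3 lower and 3 higher, with a median of -0.10, and of -0.17 without replicate 4. Beside the site of peptide bond formation, mrpl-2 differed by 0.04 and mrpl-16 by -0.55. The 4 genes named after S18 ran from -0.71 for mrps-18A to 0.11 for mrps-18.C.

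Genes with and without a counterpart in the bacterial ribosome had medians close to each other. The 44 genes of proteins with a bacterial counterpart had a median difference of -0.34, with 35 lower, and the 26 genes of proteins found only in mitochondria had -0.29, with 19 lower. At an unadjusted p under 0.05, 17 of those with a counterpart were lower and 2 higher, and 6 of those without were lower and 1 higher, where 12.9% of all genes were lower and 13.2% higher. Without replicate 4 the medians were -0.56 and -0.44. The difference between these classes was not tested.

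The differences went with gene length. Over the 70 genes the difference correlated with log2 gene length (start to end, introns included) at Pearson r = 0.50 and Spearman rho = 0.50, a description across genes measured on the same 8 arrays. Over 18800 protein-coding genes r was 0.39. The 27 genes of at most 1000 bases had a median of -0.44, with 25 lower, against -0.20 over coding genes of that length. The 27 genes of 1001 to 2000 bases had -0.29, with 22 lower, against -0.12.

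The medians of longer mitoribosomal genes lay near or above 0. The 9 genes of 2001 to 4000 bases had a median of -0.03 and the 7 longer ones 0.22, against -0.01 and 0.23 over coding genes, but both classes hold few genes. Of the 16 genes higher in the mutants, 5 are longer than 4000 bases, among them mrpl-30, mrpl-45 and mrps-35, and the others are shorter, such as mrps-28 at 1438, mrpl-22 at 2394 and mrps-18.C at 581 bases. Within the 70, mrpl-38 is the longest gene at 10084 bases and had a difference of -0.48 (standard error 0.16, limma adjusted p = 0.126). Without replicate 4, 81.5% of the mitoribosomal genes of at most 1000 bases fell, against 38.4% of coding genes of that length, and 51.9% of those of 1001 to 2000 bases, against 29.1%.

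**Figure D3:**
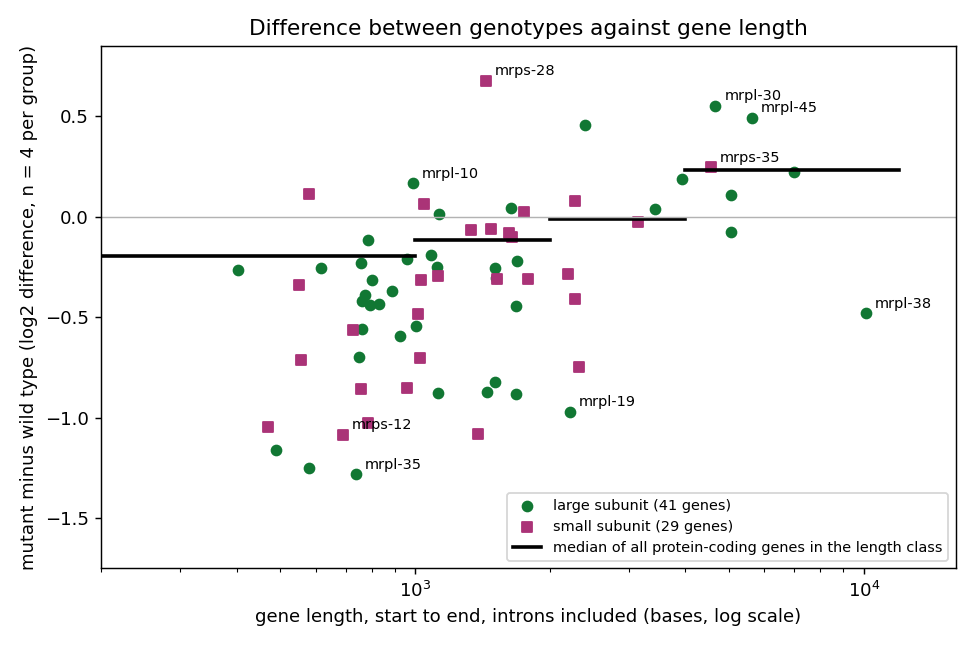
Difference between genotypes (mutant minus wild type, log2, 4 arrays per group) against gene length on a log axis, for 41 large-subunit genes (circles) and 29 small-subunit genes (squares). Black bars are the medians of all protein-coding genes in 4 length classes. Mitoribosomal genes of up to 2000 bases lie mostly below the bars, with medians of -0.44 and -0.29.

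Removing the length trend from each array, by a lowess curve over all genes, reduced the median of the 70 from -0.31 to -0.17. Among the 70 a trend with log2 gene length remained, at Pearson r = 0.28 and Spearman rho = 0.35. Over protein-coding genes these were 0.11 and 0.06. The members of at most 1000 bases kept a median of -0.22, and those above 4000 bases had -0.005. None of the 70 was then past the threshold, against 1.73% of all genes (1.12% lower and 0.602% higher), 50 were lower, and 22, or 31.4%, had an unadjusted p under 0.05 in either direction, against 25.1% of all genes. With the trend removed and replicate 4 left out, 27 genes fell, or 38.6%, against 17.4% of all genes, and 7 rose, or 10%, against 16.5%. All 27 were among the 41 that fell without replicate 4, and all 4 risen genes of that fit were among the 7. In this fit mrps-5 differed by -0.95 (limma adjusted p = 7.74e-04) and mrpl-35 by -1.34 (limma adjusted p = 2.09e-04).

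**Figure D4:**
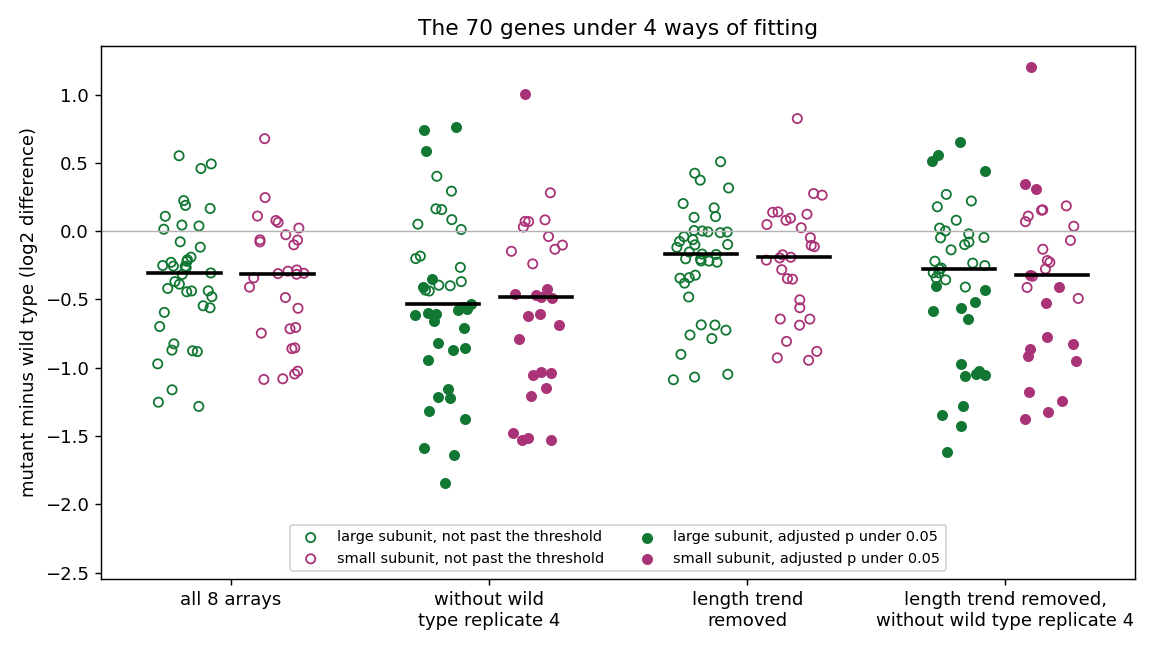
Difference of each of the 70 genes (log2, vertical) under 4 fits, large subunit left and small subunit right within each, with a bar at the median. Filled points passed an adjusted p of 0.05. No point is filled with all 8 arrays, with or without the length trend, and 45 and 34 points are filled in the fits without wild-type replicate 4.

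The 70 genes lie on the 5 autosomes and none on the X chromosome. Chromosome III holds 23, or 32.9%, where 13.46% of coding genes lie, chromosome I holds 15, II holds 12, and IV and V hold 10 each. The X chromosome holds 13.8% of coding genes. The median difference was -0.32 on III and ran from -0.13 (II) to -0.50 (IV) elsewhere. Without replicate 4 it was -0.49 on III and ran from -0.25 (II) to -0.72 (IV) elsewhere. Of adjacent genes, mrps-2 and mrpl-4 lie 105 bases apart on chromosome V and differ in length by little, at 1474 and 1679 bases. Their differences were -0.06 and -0.88, and the contrast between them was not tested.

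The mRNAs that this ribosome translates were read as well. All 12 mitochondrially encoded subunits were measured, 11 were lower in the mutants, 0 passed the test, and none had an unadjusted p under 0.05 in limma. Their median difference was -0.34. The lowest p was that of ND2, a subunit of complex I, which gave 11.83, 11.57, 12.31 and 10.73 across the wild types and 11.13, 10.75, 11.16 and 10.83 across the mutants, a difference of -0.64 (standard error 0.30, limma adjusted p = 0.203). Replicate 4 was below all mutants there, and over the 12 transcripts its median distance from the other wild types was -1.11. Without replicate 4, 6 of the 12 fell, where 17.8% of all genes fell, and the median was -0.60.

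The other genes of mitochondrial gene expression had medians near 0, and no gene of these lists passed the test with all arrays. Without replicate 4 the genes named here from these lists fell, tufm-2 by 0.69, ears-2 by 1.07, hmg-5 by 0.45, metl-17 by 0.47 and dap-3 by 0.53 (log2 differences, limma). In that fit 1 translation factor gene fell and 1 rose, and 2 aminoacyl-tRNA synthetase genes fell and 1 rose. For mitochondrial DNA maintenance and transcription 2 fell and 1 rose, and for RNA handling and ribosome assembly 1 fell and 0 rose. Over all genes 17.8% fell and 19.1% rose. Of 5 listed translation factors 4 were measured, with a median of 0.04, and tufm-2, an elongation factor gene, had the lowest p at -0.49 (standard error 0.20, limma adjusted p = 0.165). Of 11 listed aminoacyl-tRNA synthetases 9 were measured, with a median of -0.005. The lowest p was that of ears-2, the glutamyl-tRNA synthetase gene, at -0.76 (standard error 0.28, limma adjusted p = 0.139). All 6 genes of mitochondrial DNA maintenance and transcription were measured, with a median of -0.03. There hmg-5, whose protein packs mitochondrial DNA, differed by -0.30 (standard error 0.16, limma adjusted p = 0.257).

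For RNA handling and ribosome assembly 3 of 4 listed genes were measured, with a median of 0.08, and metl-17, whose relatives assist assembly of the small subunit, differed by -0.34 (standard error 0.14, limma adjusted p = 0.174). The gene dap-3, a small-subunit protein with a name outside the rule, gave 9.81, 9.89, 9.87 and 9.05 across the wild types and 9.33, 9.23, 9.35 and 9.38 across the mutants. Its difference was -0.33 (standard error 0.19, limma adjusted p = 0.284), close to the medians of its subunit, and replicate 4 was its lowest array. In each of these lists the gene with the lowest p was lower in the mutants, and replicate 4 was its lowest wild-type array.

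Of 13 listed genes of protein import, which brings these ribosomal proteins into the organelle, 12 were measured. The median was -0.18, and 4 were lower at an unadjusted p under 0.05, where 12.9% of all genes were. Without replicate 4, 5 fell and 1 rose, where 17.8% and 19.1% of all genes did, and the median was -0.20. The lowest p was that of tomm-20, a receptor of the outer membrane, with 8.77, 8.75, 8.63 and 7.90 across the wild types and 7.73, 7.84, 7.81 and 7.82 across the mutants, a difference of -0.72 (standard error 0.19, limma adjusted p = 0.0885). All 4 mutants lay below all 4 wild types in this gene, replicate 4 by the least.

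All 8 listed genes of the mitochondrial unfolded protein response were measured, with a median of 0.20 and no gene past the threshold. The lowest p was that of clpp-1, the matrix protease gene, with 10.71, 10.70, 10.39 and 9.56 across the wild types and 9.59, 9.46, 9.41 and 9.39 across the mutants, a difference of -0.88 (standard error 0.24, limma adjusted p = 0.0911). Without replicate 4, 4 genes rose and 2 fell, where 19.1% and 17.8% of all genes did. The transcription factor genes atfs-1 and dve-1 rose by 1.35 and 0.86, the chaperone genes hsp-6 and hsp-60 rose by 0.54 and 0.59, and clpp-1 and ubl-5, a ubiquitin-like cofactor of dve-1, fell by 1.14 and 1.34 (all differences in log2, limma). With all 8 arrays the 2 chaperones differed by 0.37 and 0.41, at adjusted p-values of 0.227 and 0.197 in limma. With the length trend removed the median of the 8 genes was 0.05, with 4 lower. With replicate 4 also left out it was 0.11, and 4 rose and 2 fell, where 16.5% and 17.4% of all genes did. Whether these values reflect the response was not tested.

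**Figure D5:**
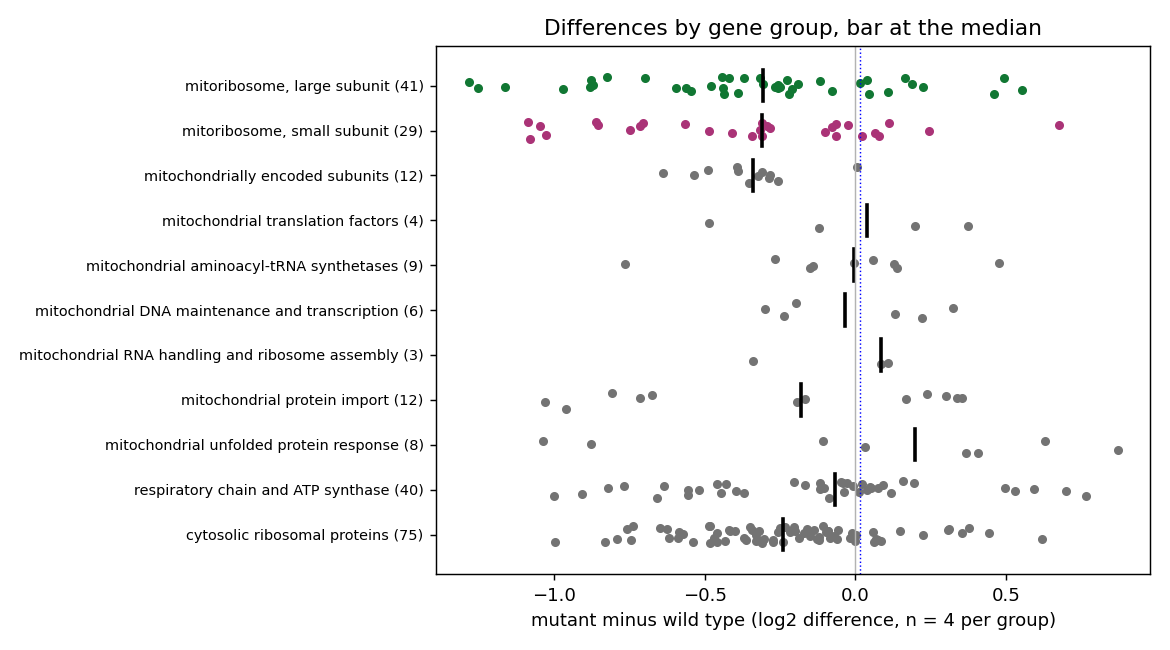
Differences of single genes (mutant minus wild type, log2, 4 arrays per group) for the 2 subunits of the mitoribosome and 9 other groups, with the number of genes in brackets and a bar at the median. The dotted line is the median of all genes, 0.02. The 2 subunits and the mitochondrially encoded subunits have their medians at -0.31, -0.31 and -0.34.

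The 2 groups most like the mitoribosome were set beside it. The 75 cytosolic ribosomal protein genes had a median difference of -0.24, with 61 lower, and the 40 nuclear genes of the respiratory chain and ATP synthase had -0.07, with 25 lower. None of either group passed the test with all arrays, and 22 and 11 were lower at an unadjusted p under 0.05, or 29.3% and 27.5%, beside 32.9% of the mitoribosomal genes and 12.9% of all genes. Without replicate 4, 35 cytosolic ribosomal genes fell, or 46.7%, and 14 respiratory chain and ATP synthase genes, or 35%, beside 58.6% of the mitoribosomal genes and 17.8% of all genes. Their medians in that fit were -0.33 and -0.10. Their replicate 4 stood less far from the other wild types, at medians of -0.26 and -0.10, than in the mitoribosomal genes, at -0.68. With the length trend removed the medians were -0.06 for the cytosolic ribosome and 0.02 for the respiratory chain, beside -0.17 for the mitoribosome. The difference between these groups was not tested.

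Whole worms hold tissues in unequal shares, so tissue markers are given beside the members. Of 12 oocyte and germ line markers 11 were higher in the mutants and none passed, with a median difference of 0.22 and a mean log2 level of 10.86 to 11.52 among wild types and 11.23 to 11.52 among mutants. Of 9 measured sperm markers 6 fell, where 1.22% of all genes did, and their median difference was -1.21. Their mean level ran from 6.35 to 6.45 among wild types and from 5.20 to 5.61 among mutants. The sperm list kept wild-type replicate 4 with its group, unlike the mitoribosomal genes. The median of replicate 4 minus the other wild types was -0.11 for sperm. Replicate 4 lay above all mutants in all 9 markers and inside the range of wild-type replicates 1 to 3 in 2. It was nearer to the mutant mean than to theirs in 4, or 44.4%, against 72.2% of all genes.

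Epidermal and muscle lists were mostly higher in the mutants, but no marker of either passed the test with all arrays. Of 8 epidermal markers all 8 were higher, with a median of 0.51 and mean levels of 6.59 to 7.79 and 7.37 to 7.80 in wild type and mutants. Of 8 body wall muscle markers 7 were higher, with a median of 0.33 and mean levels of 9.51 to 10.38 and 9.92 to 10.35. In replicate 4 the epidermal and muscle lists stood above the other wild types by medians of 0.87 and 0.88, the opposite side from the mitoribosomal genes.

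The other lists moved less with that array. Of 8 intestinal markers 6 were lower, with a median of -0.18 and mean levels of 10.41 to 10.59 and 10.42 to 10.44. Of 7 measured neuronal markers 6 were higher, with a median of 0.19 and mean levels of 8.68 to 8.94 and 8.91 to 9.03. No intestinal or neuronal marker passed with all arrays. Of 8 zygotic embryo markers 6 were higher, and 1, cnd-1, rose, where 0.616% of all genes did. Their median was 0.54 and their mean levels were 7.82 to 8.43 and 8.36 to 8.54. Without replicate 4 the median differences were 0.32 for oocyte and germ line, -1.35 for sperm, 0.79 for epidermis, 0.56 for muscle, -0.22 for intestine, 0.27 for neurons and 0.60 for zygotic embryo markers. With the length trend removed and all arrays kept, the medians were 0.50 for epidermis, 0.11 for muscle and -0.17 for intestine. For neurons the median was then 0.06, with 3 of 7 lower. The part of these tissues in the values of the mitoribosomal genes was not tested.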

How the data were processed

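Whole-worm RNA was measured on 8 Affymetrix arrays. The authors deposited 1 table of log2 signals, made with Partek 6.6 and RMA per the submitters' processing notes. Since RMA brings the arrays to a common distribution, a shift of most genes together would be hidden. Probe sets were named through the platform annotation, and symbols were updated through Entrez identifiers to RefSeq (WBcel235), which also gave chromosomes and gene lengths. Of 29317 rows, 26192 had a gene and were tested, and 3125 unnamed rows were left out. The brightest probe set stood for a gene.

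The genotypes were compared by lmFit and eBayes of limma 3.58.1, run under R 4.3.3 (2-sided, group means, no covariate, Benjamini-Hochberg over the 26192 probe sets, threshold 0.05). The code was tested on simulated data. Members and lists were chosen with earlier results of these data known. The groups by position in the ribosome and by bacterial counterpart were drawn up, and in places completed, after these genes' values were seen. A bacterial counterpart was read from the number (up to 36 for mrpl, 21 for mrps) with mrpl-47, mrps-24 and mrps-28 added. Named members are, per subunit, the 3 with the lowest p in each direction, the brightest and the dimmest, plus published lifespan genes. From each pathway list the gene with the lowest p is named, since none passed. Genes singled out beyond this rule (among them mrpl-38, the genes grouped by position, and atfs-1, dve-1, hsp-6, hsp-60, ubl-5) were chosen after their values were seen. The table names mitochondrial genes in the style of ND2, and these were matched to the worm symbols by hand.

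Same-numbered samples' deviations correlated at 0.19, -0.11, 0.37 and 0.27 for numbers 1 to 4, so the numbers were not taken to pair the samples. No 2 arrays held identical values. The lowess span for the length trend was 0.3. Alternatives were another normalisation, a replicate block, a filter on the dimmest 40%, other variance models, array weights, stricter thresholds, each array left out, the length trend removed, the median over probe sets and coding genes alone.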

Additional observations from a re-analysis of the deposited data

Results flagged for a closer look

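In groups of 4, the highest or lowest array was compared with the others by the ratio of its gap to the group's range, against Dixon's 95% critical value, which chance passes in about 1 of 20 groups. Over the 70 mitoribosomal genes and both genotypes, 18 of 140 groups passed. These groups come from the same 8 arrays and are not independent. No share over all genes is given here, so the count does not set these genes apart from others. Wild-type replicate 4 was the lowest array in 14 of these and the highest in 1, mutant replicate 3 the highest in 2, and mutant replicate 1 the lowest in 1. Among the genes named by rule, wild-type replicate 4 was far below its group in mrpl-35 (0.893), mrpl-36 (0.861), mrpl-58 (0.899), mrps-12 (0.922) and mrps-7 (0.855). The genes mrpl-4 (0.960), mrps-11 (0.842) and mrps-18A (0.855), which the text mentions by position, showed the same. Outside the rule's genes the same held for ears-2 (0.868), metl-17 (0.959), tomm-20 (0.841) and dap-3 (0.905). In mrpl-37 that array was far above its group (0.894). In mrpl-54 mutant replicate 3 was far above the other mutants (0.873).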

How the results depend on the processing

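With all 8 arrays 0 mitoribosomal genes were called, and the count was also 0 under quantile normalisation, array median subtraction, the replicate block, the filter on dim probe sets, eBayes with trend and robust, the median over probe sets, coding genes alone, the length trend removed and both stricter thresholds. The replicate block, on numbers that do not pair the samples, left both medians at -0.31 and changed no call. Array weights, which gave wild-type replicate 4 a weight of 0.17, called 26 large-subunit genes lower and 4 higher and 18 small-subunit genes lower and 2 higher, where 41.1% of all genes were called. With the length trend removed and wild-type replicate 4 left out the counts were 15, 4, 12 and 3. Leaving out each array in turn gave 0 to 23 large-subunit genes lower, 0 to 3 higher, 0 to 18 small-subunit genes lower and 0 to 1 higher, and every count above 0 came from leaving out wild-type replicate 4. The median ran from -0.54 to -0.20 for the large subunit and from -0.49 to -0.22 for the small one. Among named genes 3 with differences far from the threshold changed sign. These were mrps-22 (0.005 without wild-type replicate 1 and 0.05 with the length trend removed, from -0.08), mrpl-2 (-0.003 without wild-type replicate 3 and -0.006 with the length trend removed, from 0.04) and mrpl-37 (-0.005 with the length trend removed, from 0.22). The other named genes and both medians kept their sign under the alternatives run. The cause of the array's position was not tested. Detection above background was not judged, since no scanner files were used here.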
